A study of Mus musculus with 6 samples.

Results

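Many genes can finish their transcripts in more than 1 place. Transcript ends were read here from RNA sequencing of the nucleus accumbens (NAc) of the mouse, part of the ventral striatum and of the reward system, and the report covers the 396 genes in which 2 or more transcript ends were listed in every one of the 6 libraries. An end was identified by its gene, chromosome, strand and the coordinate at which its last exon begins (the splice side), and it was kept when all 6 libraries listed that coordinate. The rule kept 858 ends, out of 32206 ends in 16154 genes that were listed in at least 1 library and out of 9950 ends in 9488 genes that were listed in all 6. The members were thus chosen by presence of the splice side in the 6 lists, which is given only as a description.

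All libraries came from adult male mice of the strain C57BL/6N after training for place preference (CPP, conditioned place preference), in which an animal learns to link a compartment with an injection. The morphine group (3 libraries) received morphine in 1 compartment and saline in the other, and the saline group (3 libraries) was conditioned with saline. Tissue was taken after the preference test on the day after the last conditioning session. The series description counts more mice than libraries in each group, whereas the paper's description of its heatmaps names a single mouse per library. Whether tissue was pooled is therefore not settled, and the spread between libraries may not be the spread between single animals. All 9 markers of medium spiny neurons, the main NAc cell type, were listed in all 6 libraries, and so were the markers of astrocytes (5), oligodendrocytes (5), microglia (5), ependymal cells (4) and cortical excitatory neurons (4), with 3 of 4 endothelial markers. Listing is not a level, so the share of each cell type, and fewer cells of a type against less RNA per cell, cannot be told apart in these lists.

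The end of a messenger RNA is made by cleavage and addition of a poly(A) tail, usually a short way after the hexamer AATAAA or its variant ATTAAA. A gene obtains different ends in 2 main ways. It can splice into a different last exon, or use an exon that runs on into the following intron, and the protein then often has another C-terminus. Alternatively it can cut the same last exon at different sites, which changes only the 3′ untranslated region. Because the identity used here is the splice side, the 858 ends are mainly of the first kind. In 51 of the 396 genes, however, all last exons shared the outer end and differed only in the splice side. Several sites within 1 last exon count as 1 end. Neurons are known for the use of distant ends and for C-terminal isoforms of receptors, scaffolds and kinases.

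The last bases of the transcripts at some of these ends are shown because the hexamer differed in frequency between the earlier and the last ends of these genes. Each line gives the 30 bases up to the outer end, 5′ to 3′ on the transcript strand, with a hexamer in capitals where those bases held one. Ends are numbered along the transcript. The sequences are those of annotated GENCODE M21 transcripts on GRCm38 that share the splice side and reach the outer end.

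Qk end 1: aagcAATAAAcatttattgaacaaaagaaa

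Qk end 3: agggataAATAAAgtcttgagttcctggac

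Tardbp end 1: tttgcttcaAATAAActtatttgaaaagtt

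Tardbp end 2: gttaaATTAAAccatttggaatatattgtg

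Flt1 end 1: tgtgctattatatagcgcaaaacctacaaa

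Flt1 end 2: tcatttAATAAAattaactttcaaaaccaa

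Gria4 end 1: gcatggctactcttcaagaagcatgatatc

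Gria4 end 2: tgtaggtgcttAATAAAtatttgttgaatg

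Ern1 end 1: tcataattgcaagaagatctcttctcagcc

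Ern1 end 2: tattcatgtttgtgaatgcatgtgtgtatg

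Ern1 end 3: atactagagaatacaattaatcttatgccc

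Ern1 end 4: aaccacaAATAAAggtagttttagatttgg

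Papolg end 1: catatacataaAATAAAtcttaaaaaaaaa

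Papolg end 2: tcttttcaaagagaaactttaaaaccttta

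These lines lie at chr17:10210179-10210208 and chr17:10206471-10206500 for Qk, and at chr4:148616726-148616755 and chr4:148612382-148612411 for Tardbp, all on the minus strand. Those of Flt1 lie at chr5:147635159-147635188 and chr5:147561604-147561633, those of Gria4 at chr9:4478263-4478292 and chr9:4417899-4417928, and those of Papolg at chr11:23865244-23865273 and chr11:23862646-23862675, again on the minus strand. The Ern1 ends lie on chr11, minus strand, with outer ends at 106458556, 106434681, 106413766 and 106394650. In Qk and Tardbp each end shown carried a hexamer, whereas in Flt1, Gria4 and Ern1 only the last one did. Papolg showed the opposite order. These genes were chosen for display after their values had been seen.

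Of the 396 genes, 341 had 2 such ends, 45 had 3, 9 had 4 and 1 had 5. Just outside the rule stood 189 of the 9092 genes with exactly 1 end in all 6 libraries, which had 213 further ends listed in 5 of the 6. The 396 genes had 1285 listed ends in all. Of these, 275 were listed in 1 library only, 64 in 2, 41 in 3, 22 in 4 and 25 in 5. A gene record was found in GENCODE M21 for 394 of the 396 genes, and all 394 were protein coding.

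The last exons of a gene mostly did not touch each other. In 250 genes (63.1%) all last exons were separate, in 69 they overlapped with different outer ends, in 51 they shared the same outer end and differed only in the splice side, and 26 genes mixed these arrangements. Counted by neighbours along the transcript, 304 of 462 pairs were separate, 92 overlapped and 66 shared the outer end. The outer ends of the separate pairs lay a median of 7649.5 bases apart (interquartile range 3114 to 17935), and 126 pairs were at least 10000 bases apart. In 236 of the 304 separate pairs (77.6%), the earlier last exon began at a coordinate where other annotated transcripts of the gene begin an internal exon. Of these 236, the outer end lay past the 3′ boundary of every such internal exon in 222 and past none of them in 13. In 232 separate pairs the annotated coding transcripts on the 2 last exons had no stop codon in common, in 17 they had one in common, and in 55 at least 1 of the last exons had no annotated coding transcript with a stop codon. These stop codons belong to the transcripts that use the last exon and need not lie within it.

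**Figure D1:**
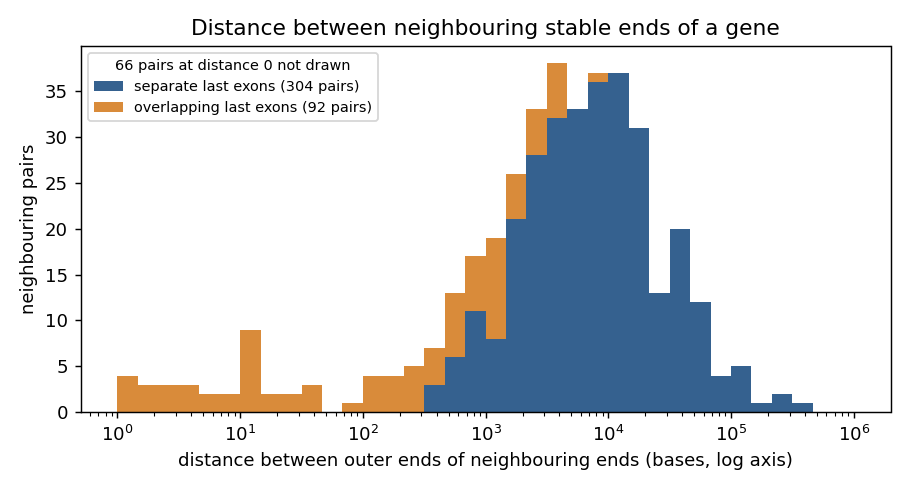
Distance between the outer ends of neighbouring stable ends of a gene (bases, log axis) against the number of pairs, stacked for 304 separate and 92 overlapping pairs of last exons. Separate pairs centre near a median of 7649.5 bases, and overlapping pairs at a median of 292.5 bases. The 66 pairs with the same outer end are not drawn.

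Nisch, which encodes the integrin-binding protein nischarin, had the most ends, 5 on chromosome 14, spread over 30936 bases. Its last exons were 1544, 1198, 466, 585 and 1249 bases long, each with the same length in all 6 libraries. Coding transcripts were annotated on 4 of the 5, each with its own stop codon, and the exon of 466 bases carried only a non-coding transcript. Ern1, the endoplasmic reticulum stress sensor kinase and endoribonuclease, had 4 separate last exons of 473, 307, 704 and 4105 bases over 63906 bases. Its 3 earlier exons each began at an annotated internal exon start, each had a stop codon of its own, and none held a hexamer in the 50 bases before its outer end. Stxbp4, a syntaxin-binding protein, had 4 separate last exons of 893, 234, 2551 and 4223 bases over 122896 bases. In contrast to Ern1, the first end held AATAAA, the second ATTAAA and the other two neither. Gatad1, a zinc finger protein of chromatin, had 4 ends over 10145 bases, of which the third shared its outer end with the second and had a splice side that is not annotated as a last exon. Ppil2, a cyclophilin-like protein, had 4 ends over 9206 bases. Its last 2 shared the outer end at 17086555 on chromosome 16, with last exons of 659 and 561 bases. Every end of these 5 genes had 1 length in all 6 libraries. The 4 genes with 4 ends were taken by order of identifier from 9 such genes, and 3 of the 9, none of them among those 4, had an end whose length varied. One of the 3 was Rnpc3, a protein of the minor spliceosome, whose last end was 221, 221 and 220 bases long in saline and 1194, 361 and 214 in morphine, with overlap between the groups.

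**Figure D2:**
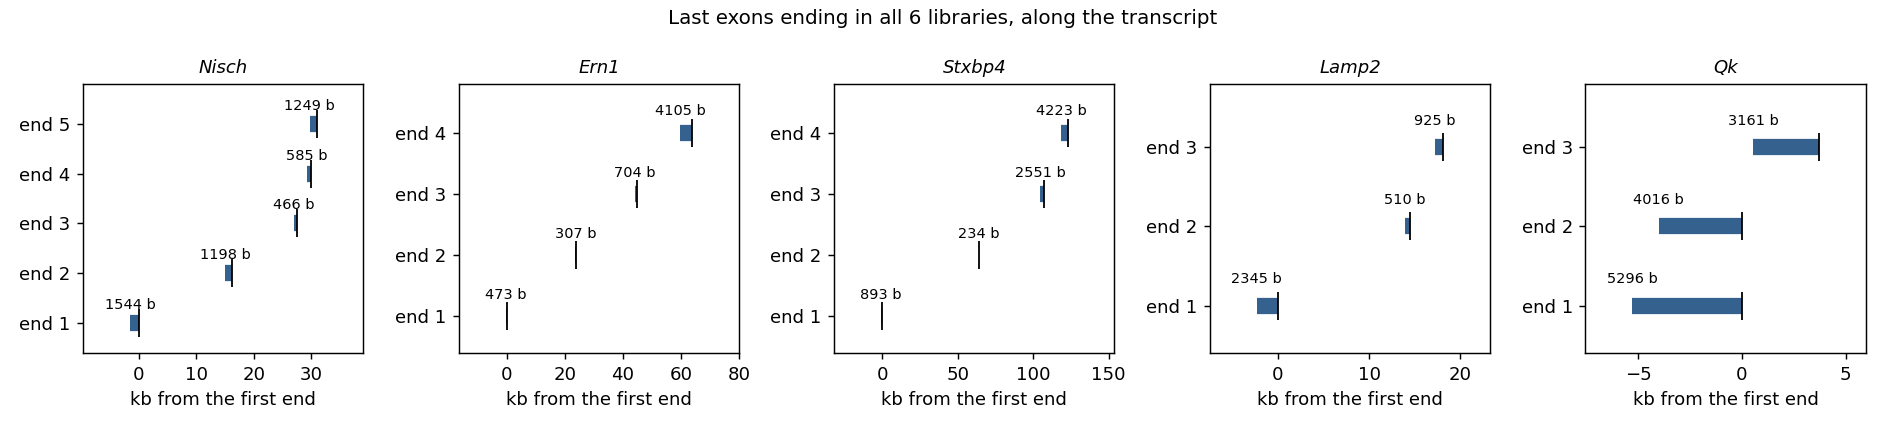
Last exons of Nisch, Ern1, Stxbp4, Lamp2 and Qk, drawn to scale as bars against kb from the outer end of the first stable end, with a tick at the outer end and the length in bases above. Nisch spans 30936 bases with 5 ends, and the first 2 last exons of Qk end at the same base.

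The largest distances between the outermost ends of a gene were 395733 bases in Samd5, 258810 in Cmss1, 217506 in Wdr70, 155843 in Cpne8 and 140704 in Ehbp1. In Samd5, which encodes a SAM domain protein, the second end is not an annotated last exon and lies outside the annotated gene. Its last exon was 50429, 43905 and 28114 bases long in the saline libraries and 27759, 41553 and 5817 in the morphine libraries, so no 2 libraries gave the same length and the groups overlapped. In Cmss1, a ribosome biogenesis factor, the first last exon was 662, 574 and 874 bases long in saline and 938, 846 and 540 in morphine. Its second last exon was 84 bases long in every library and stopped at the last base of the annotated stop codon. In Wdr70, a WD repeat protein, the first last exon was 1151, 6978 and 1148 bases long in saline and 4114, 1150 and 3959 in morphine, again with overlap. In Cpne8, a calcium-dependent membrane-binding copine, and Ehbp1, an endocytic adaptor, both last exons had 1 length throughout, namely 388 and 1693 bases in Cpne8 and 169 and 1044 bases in Ehbp1. The far ends thus include both annotated last exons fixed to the base and assembled exons whose length changed from library to library.

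Genes with several stable ends made up 4.17% of the 9488 genes with any stable end, and the gene lists below are counted beside that share. Of 24 factors that make 3′ ends, 1 was a member, Papolg, a nuclear poly(A) polymerase, while 17 had exactly 1 end in all 6 libraries, so 1 of the 18 with any stable end (5.56%) was a member. The 2 Papolg ends on chromosome 11 lay 2598 bases apart, with last exons of 1224 and 1411 bases and separate stop codons. Of 18 genes known for alternative last exons, 1 was a member and 10 had exactly 1 stable end, so 9.09% of 11 were members. Homer1, the synaptic scaffold gene, had 3 listed ends but 1 in all 6 libraries, and Oprm1, the mu opioid receptor gene, had 5 listed ends of which 0 were in all 6. Klc1, a kinesin light chain that links cargo to the motor, was the member of that list. Its 2 ends on chromosome 12 lay 11832 bases apart. The first last exon was 559 bases long in all libraries, and the second was 413 bases long in all but saline 2, where it was 461.

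Of 26 RNA-binding proteins that act on splicing and 3′ ends, 3 were members, Tardbp, Ptbp2 and Qk, and 15 had exactly 1 stable end, so 16.7% of 18 were members. Qk encodes the quaking proteins, whose isoforms differ in their C-termini. It had last exons of 5296, 4016 and 3161 bases, the first 2 with the same outer end at 10210179 on chromosome 17, and 3 different stop codons at 10215431, 10214169 and 10209615. Tardbp, which encodes an RNA-binding protein that controls its own messenger RNA through the 3′ region, had 3 ends. The first last exon was 980 bases long in all 6 libraries. The second was 6410 bases long in 5 libraries and 2066 in saline 3, and the third was 4463 bases long in 5 libraries and 119 in saline 3. Saline 3 thus stood alone in both, and since these last exons overlap they are not separate observations. In Ptbp2, a neuronal splicing repressor, the splice sides were 3 bases apart, at 119720460 and 119720457 on chromosome 3, and the stop codon was the same.

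Of 30 receptors, peptides and signalling genes of the accumbens, 1 was a member, Grin1, the obligatory subunit of the NMDA receptor, and 19 had exactly 1 stable end, so 1 of 20 with any stable end (5.0%) was a member. The last exons of Grin1 on chromosome 2 began at 25292484 and 25292128, were 1304 and 948 bases long in all 6 libraries and shared the outer end at 25291181. Their stop codons at 25292368 and 25292060 differed, so the exons encode different C-terminal stretches of the receptor. None of the 9 medium spiny neuron markers was a member, and only 5 of the 9 had any stable end. Of the markers with any stable end, 1 of 3 was a member in astrocytes (Gfap) and 1 of 4 in oligodendrocytes (Mobp). In endothelial cells 1 of 3 was (Flt1). None was a member in microglia (of 4), ependymal cells (of 3) or cortical excitatory neurons (of 3). These lists are too short to compare cell types.

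The members named in this and the next paragraph were chosen after their values were seen. Gfap, the astrocyte intermediate filament protein, had last exons of 1355 and 1386 bases on chromosome 11, with stop codons at 102891396 and 102888677. Lamp2, a lysosomal membrane protein with 3 tail variants, had 3 separate last exons of 2345, 510 and 925 bases on chromosome X, each with its own stop codon. Flt1, a receptor for vascular endothelial growth factor, had an earlier last exon of 4375 bases that began at an internal exon start, 73555 bases before the outer end of the last one. Transcripts ending there are annotated as coding and lack the later exons, which carry the transmembrane part. In Gfap, Lamp2 and Flt1 all ends had 1 length in all 6 libraries. Psip1, a chromatin-bound transcriptional coactivator with a short and a long form, had 3 ends of 683, 603 and 1400 bases on chromosome 4, also fixed.

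Small shifts of the splice side also gave stable pairs. The JNK kinase genes Mapk8 and Mapk9 each had splice sides 5 bases apart. In Mapk9 the last exons of 3280 and 3275 bases on chromosome 11 shared the outer end and their stop codons stood at 49883158 and 49883289. In Mapk8 the last exons were 215 and 4427 bases long, with outer ends 4207 bases apart and stop codons at 33382174 and 33382308 on chromosome 14. Among receptors and channels, Gria4, an AMPA receptor subunit, had separate last exons of 590 and 2418 bases, each with its own stop codon. Kcnj6, a G protein-coupled potassium channel, had a second last exon of only 5 bases in every library, which reached the annotated stop codon and no further, 630 bases short of the annotated end. Short last exons of this kind were rare, with 7 of the 858 ends at an annotated stop codon (0.816%, against 0.704% for genes with 1 stable end). Among synaptic proteins, Dnm1, the dynamin of synaptic vesicle endocytosis, had last exons that shared an outer end and were 2017 and 594 bases long in all libraries but saline 2, where both were 5 bases longer. Adam22, a synaptic adhesion protein, had 3 separate last exons of 1372, 147 and 6355 bases over 71996 bases, and Kalrn, an exchange factor of dendritic spines, had 427 and 1411 bases.

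The outer end was identical in all 6 libraries for 759 of the 858 ends (88.5%), against 6938 of the 9092 ends of genes with 1 stable end (76.3%). The splice side was an annotated last exon for 831 of the 858 ends (96.9%, against 99.1% for genes with 1 stable end). The outer end coincided with an annotated end for 724 (84.4%, against 72.5% for genes with 1 stable end). Of the 759 fixed ends, 672 stood at an annotated end of GENCODE M21. A further 69 had an annotated splice side but another outer end, such as Qk end 3, which was 80 bases from the annotated end in every library. Transcript assembly can follow the annotation it is given, and how much of the agreement to the base comes from reads was not tested. A stop codon of a coding transcript lay within 720 of the 858 last exons (83.9%), against 94.9% for genes with 1 stable end. On 33 annotated last exons of members no protein-coding transcript was annotated (3.85%, against 0.550%). Of the 858 ends, 4 were on the strand opposite to that of their gene (0.466%, against 0.209%). For 20 the outer end was not inside an annotated record of the gene (2.33%, against 7.46%). These counts of ends not inside a record include ends of genes without a record.

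A poly(A) hexamer was less frequent at the earlier than at the last ends of these genes. Sequence up to the outer end was available for 794 of the 858 ends, and 509 of these (64.1%) held AATAAA or ATTAAA within 50 bases of the end, namely 421 AATAAA and 88 ATTAAA alone. Over all 9136 stable ends with sequence the share was 74.6%. Only the transcript strand was searched, and where both hexamers were present the end was counted under AATAAA. In the bases 51 to 100 before the end, the share was 6.30% for members and 6.76% for all stable ends. In the 250 genes whose last exons were all separate, the share was 46.0% at the earlier ends (121 of 263) and 77.4% at the last ends (188 of 243). The share in genes with 1 stable end was 75.6%. Of 231 such genes with sequence at every end, 80 had a hexamer at every end, 92 at the last end only, 7 at the last end and some but not all earlier ends, 24 at earlier ends only and 28 at none. The median distance from the first base of the hexamer to the end was 22 bases at earlier ends and 23 at last ends. No test was made of these shares, since ends of 1 gene are not independent, and a missing hexamer says only that these letters were not in the window.

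**Figure D3:**
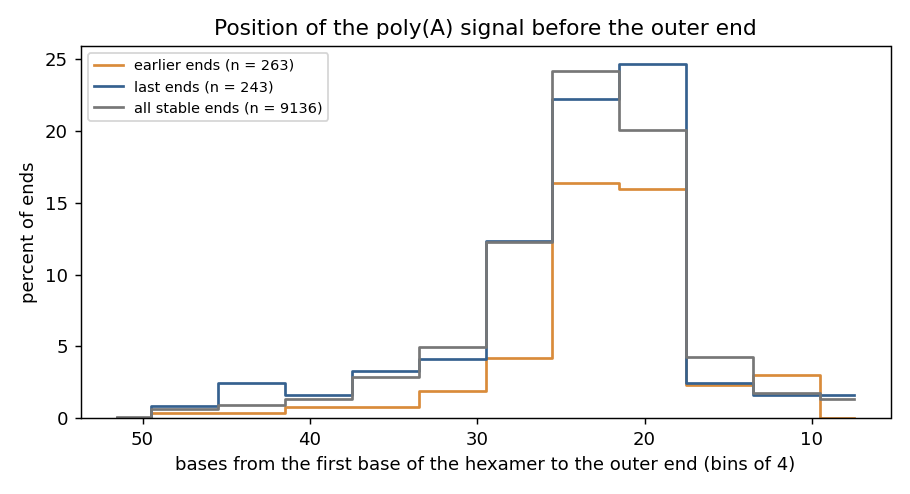
Position of the poly(A) signal, as bases from the first base of the hexamer to the outer end (bins of 4 bases), against the percent of ends, for earlier ends (n = 263) and last ends (n = 243) of genes with separate last exons and for all stable ends (n = 9136). All 3 lines peak between 18 and 25 bases, and the line of the earlier ends is lower, at 46.0% in total against 77.4% and 74.6%.

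The earlier last exons were also shorter. Their median length was 560 bases, against 1318.5 bases for the last ends of the same 250 genes. They began at an annotated internal exon start in 220 of 278 cases (79.1%), against 9 of 250 last ends. Over all 858 members the median was 1023.5 bases, against 1216.5 for genes with 1 stable end. A coding transcript was annotated on 254 of the 278 earlier last exons and on 246 of the 250 last ones. The rest include 18 earlier ends and 1 last end whose splice side is an annotated last exon.

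Genes with several stable ends seldom had several stable starts. Of the 396 genes, 8 (2.02%) had 2 or more transcript starts listed in all 6 libraries, against 1225 of 9092 genes with 1 stable end (13.5%). The same held within each library, whatever was listed in the others. Between 10.5% and 15.6% of the genes with 2 or more listed ends had 2 or more listed starts, against 31.9% to 35.3% of the genes with 1 end. Whether the program that lists events sets this relation was not tested. An exon skipping event was listed in all 6 libraries for 78 of the 396 genes (19.7%) and for 11.4% of the genes with 1 stable end. An event with an alternative exon boundary was listed for 10.1% and 5.32%, and a retained intron for 2.53% and 2.22%. The annotation lists a median of 4 last exon starts and 6 transcripts for the 394 matched genes, against 3 and 5, so more isoforms were annotated for these genes. None of these shares, nor those of fixed and annotated ends, was tested, and they are given as descriptions.

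The length of the last exon, which the rule did not use, was compared between morphine and saline with limma on the log2 scale. Only an end whose length differed in at least 1 library can be tested. Of the 858 ends, 99 did so and 759 did not. Of the 99 ends, 0 passed the adjusted p threshold of 0.05 (limma, Benjamini-Hochberg over 2253 ends), beside 8 of the 2253 varying stable ends (0.355%, with 0.133% longer and 0.222% shorter in morphine), and 1 had an unadjusted p under 0.05, beside 1.38% of all. All 8 called ends had a single length within each group, so their p-values rest on the spread of other ends. The median log2 difference was 0.0 for the 99 ends and for all 2253, with 47 longer in morphine, 44 shorter and 8 with equal means. The lengths of the 2 groups did not overlap for 3 of the 99 ends, 1 longer and 2 shorter in morphine, beside 3.02% of the 2253 (1.38% longer and 1.64% shorter).

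The 3 ends with the smallest p in each direction did not pass. Birc6, an inhibitor of apoptosis, had a last exon of 48 bases in each saline and 49 in each morphine library on chromosome 17, a difference of 0.03 on the log2 scale (SE 0.0045, limma adjusted p = 0.355). With a single length within each group, this SE and p-value rest on the spread of other ends. Hnrnpd, an RNA-binding protein of AU-rich elements, had a first last exon of 312 bases in all saline libraries and in morphine 2, and of 1611 in morphine 1 and 3. The log2 difference was 1.58 (SE 0.75, limma adjusted p = 0.752). At the other stable end of Hnrnpd, the last exon had 2908 bases in all saline libraries and morphine 1 and 3. In morphine 2 it had 332 (log2 difference -1.04, SE 0.99, limma adjusted p = 0.752). There it ended at the base where the first exon ended in morphine 1 and 3. No saline library ended either exon at that base. The 2 ends are thus not separate observations, and this pattern was not tested. Cep170, a centrosomal protein, had 833, 1843 and 833 bases in saline and 1843 in each morphine library, a log2 difference of 0.76. In the other direction, Fndc4 had 1232 bases in all saline libraries and morphine 3 and 601 in morphine 1 and 2, a log2 difference of -0.69. Fxyd5, which regulates the sodium pump, had 286 bases in all saline libraries and morphine 2 and 212 in morphine 1 and 3, a log2 difference of -0.29. An overlapping last exon of Fxyd5 had 148, 149 and 149 bases in saline and 149, 148 and 74 in morphine. It is not a separate observation. Atp5j2, a subunit of the ATP synthase, had 170, 159 and 170 bases in saline and 159 in each morphine library, a log2 difference of -0.06. The limma adjusted p was 0.752 for Cep170, Fndc4, Atp5j2 and the Fxyd5 end of 286 or 212 bases. Each of the 6 except Birc6 shared at least 1 length between the groups.

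These values depend on single libraries. Without saline 2, Cep170 and Atp5j2 passed the threshold (limma adjusted p = 7.65e-06 and 0.0120). Without morphine 2, Hnrnpd, Fxyd5 and Lactb2 passed (limma adjusted p = 8.69e-07, 8.99e-05 and 0.00353), without morphine 3 Fndc4 did (8.48e-06), and without morphine 1 the unplaced locus AC149090.1 did (0.00117). In Cep170, Atp5j2, Hnrnpd, Fxyd5 and Fndc4 the remaining libraries of each group then had 1 length each. The 2 other ends without overlap between groups, named after their values were seen, were short shifts. Alcam, a cell adhesion molecule, had 2598, 2609 and 2619 bases in saline and 2586, 2586 and 2594 in morphine, and Rnf130, a ubiquitin ligase, had 6675, 6722 and 6675 against 6649, 6666 and 6649.

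**Figure D4:**
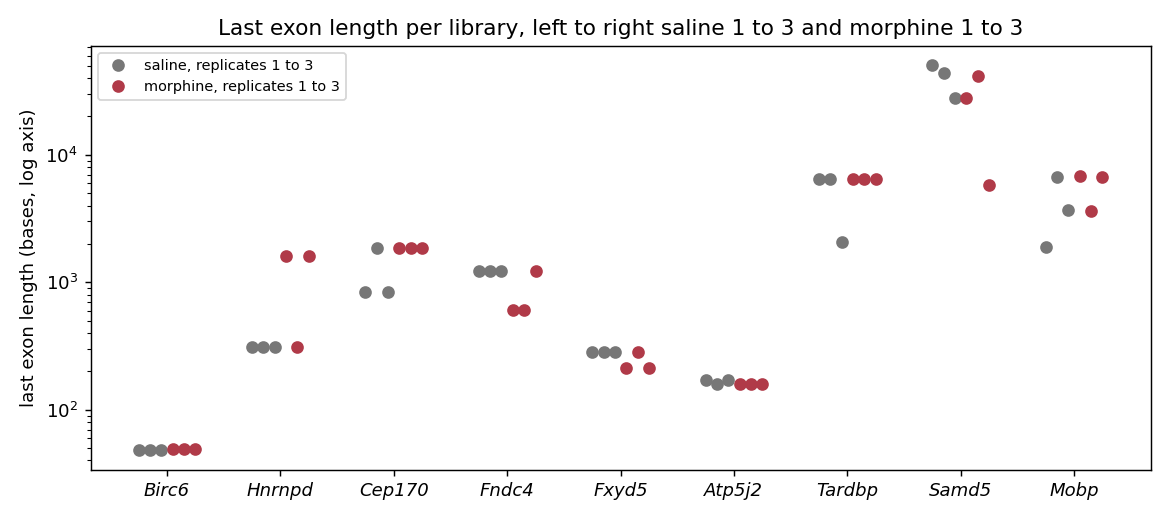
Last exon length (bases, log axis) per library for 9 ends whose length varied, with grey points for the 3 saline and red points for the 3 morphine libraries, replicates 1 to 3 from left to right in each group. Hnrnpd, Cep170, Fndc4, Fxyd5 and Atp5j2 switch between 2 lengths, Tardbp end 2 drops to 2066 bases in saline 3 alone, and the second end of Samd5 ranges from 5817 to 50429 bases.

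Where lengths varied, most ends had only 2 lengths, and in many of these the second length was seen in 1 library. Of the 99 varying ends, 63 had only 2 different lengths over the 6 libraries, and in 43 (43.4%) a single library differed from the other 5. Of all 2253 varying stable ends, 1276 had 2 lengths, and in 39.3% a single library differed. The 43 ends include 2 overlapping last exons each of Tardbp and Dnm1, which are not separate observations. The odd library was saline 1 or saline 3 in 10 ends each, morphine 1 in 7, saline 2 in 6 and morphine 2 or morphine 3 in 5 each. The spread between the shortest and the longest was 20 bases or less in 21 ends (21.2%, against 25.3% of all 2253). It was 1000 bases or more in 37 (37.4%, against 29.2%). Camk2d, a calcium/calmodulin-dependent kinase, had a last exon of 1037 bases in 5 libraries and of 4 bases in saline 3. Hras, a small GTPase, had 1534 bases in 5 libraries and 542 in saline 1, and Vcan, a matrix proteoglycan, had 2047 in 5 and 714 in saline 1. Mobp, a myelin protein, had lengths of its last exon at end 3 of 1905, 6669 and 3706 bases in saline and 6812, 3619 and 6695 in morphine, and the groups overlapped. These 4 genes were chosen after their values were seen.

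Besides their stable ends, the 396 genes had further ends that came and went. Their number was 139, 101 and 110 in the saline libraries and 156, 121 and 112 in the morphine libraries, or 116.7 ± 19.9 and 129.7 ± 23.2 (SD, n = 3). The groups overlapped, and the difference did not reach significance (two-sided exact permutation test, p = 0.5, where 0.1 is the smallest p that 3 against 3 libraries allow). It rests on morphine 1, since without it the difference of the means was -0.167. Retained-intron entries over all genes, in which an intron is part of an assembled exon, ran from 5899 and 5879 in saline 2 and 3 to 8621 in saline 1, and from 8092 and 6975 in morphine 2 and 3 to 10510 in morphine 1. Saline 1 and morphine 1 were thus highest within their groups in both measures, and the part of retained introns in the number of further ends was not tested. The relative depth, recovered from counts and FPKM of the authors' transcript table with saline 1 set to 1, ran from 1 to 1.59 and was highest in morphine 2. The lists held 67535 to 80469 entries in 14243 to 14956 genes per library.

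**Figure D5:**
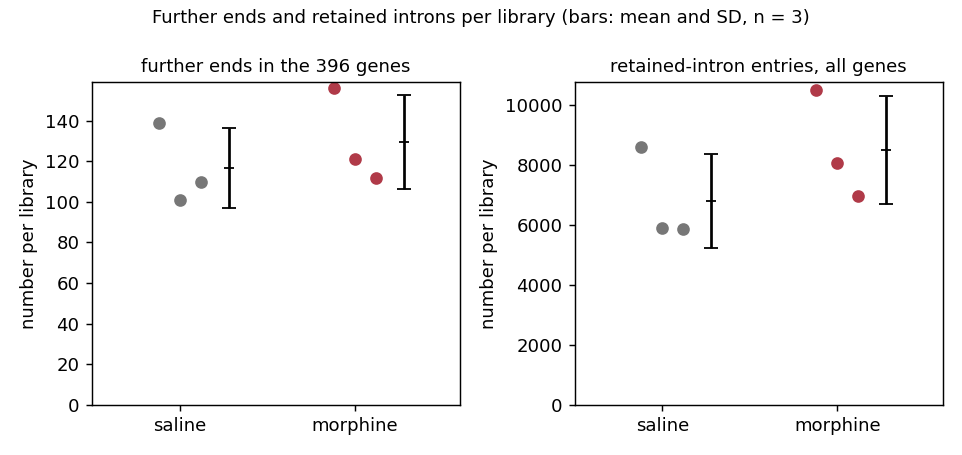
Number of further ends in the 396 genes (left) and of retained-intron entries over all genes (right) per library, with points for the 3 libraries of a group and a bar for the mean and SD. Further ends ran from 101 to 139 in saline and from 112 to 156 in morphine, and the first library of each group was highest in both panels.

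Of the 427 further ends, 2 were listed in all libraries of one group and in none of the other, or 1 for each group, beside 0.710% of all 22256 ends not listed in all 6 libraries (0.350% saline only and 0.359% morphine only). The saline-only end was in Hnrnpdl, an RNA-binding protein related to Hnrnpd. Its last exon began at 100035739 on chromosome 5, was 2163 bases long in all 3 saline libraries and reached 100033577, where the second stable end of the gene also ends. The 2 stable last exons of Hnrnpdl were 1475 and 1408 bases long in all 6 libraries. The morphine-only end was in Cfap69, a cilia- and flagella-associated gene, with a splice side at 5593853 on chromosome 5 and lengths of 208, 2661 and 208 bases. Both splice sides are annotated last exons, as are 134 of the 427 further ends (31.4%). Absence from a list does not show absence from the tissue, and 3 libraries a group allow no p under 0.1 for 1 end.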

How the data were processed

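Directional RNA libraries of 3 saline and 3 morphine NAc samples were sequenced by the authors, mapped with HISAT2 and assembled with StringTie. The genome build and annotation release are not given in the sources used here. The deposited list of each library holds positions of splicing and transcript-end events. Its column headed FPKM holds 0 and negative whole numbers and was not used. The deposited table of differential transcripts holds a raw read count and an FPKM per transcript and library, made by the authors with StringTie. They served only for relative depth, by weighted least squares over 91 values with at least 10 counts. Its fold changes, p-values and regulation calls are the authors' own and were not used. The number of per-sample columns left unused was 0.

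An end was an entry of transcript termination with 1 splice-side coordinate, and its last exon length ran from there to the outer end. The outer end of an end was the median over 6 libraries. Coordinates, counted from 1, were matched to GENCODE M21 on GRCm38. Bases before an end were read from annotated transcripts, with windows of 50 bases, so windows of shorter last exons reach into the exon before. Lengths were tested with limma 3.58.1 in R 4.3.3 on log2 bases, with Benjamini-Hochberg adjustment and a threshold of 0.05. The planned fit on all 9950 stable ends could not be used because 7697 had no variance, so the 2253 varying ends were fitted. The script was also run on simulated, normally distributed log2 lengths with known changes. The real lengths often take only 2 values, so that run does not show how the test performs on them. Python 3.11.15, pandas 2.3.3 and scipy 1.17.1 were used.

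The members and gene lists were chosen with earlier results of these data known. Named genes were the 5 with most ends (ties, among 9 genes with 4 ends, broken by gene identifier), the 5 with the largest distance between outermost ends, the 3 ends with the smallest p in each direction, since none passed, genes with 2 or more further ends of one group only (0 were found), and members of 4 lists. Other genes were named after their values were seen, as stated there. Groups came from the treatment labels, and replicate numbers follow accession order and only name libraries. P-values measure the spread between these libraries, which may be technical in part. Total reads per library were not analysed here, so the depth behind an end is unknown. Alternatives were other rules of presence and identity, other scales, moderation and filters of the length test, other hexamer windows, and each library left out in turn.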

Additional observations from a re-analysis of the deposited data

How the results depend on the processing

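No paired analysis was possible because the labels give the groups no shared replicate numbers. The 396 genes and 858 ends became 659 genes and 1440 ends when 5 of 6 libraries sufficed, and 424 to 444 genes and 921 to 962 ends when each library was left out. With overlapping last exons counted as 1 end, 271 genes and 575 ends remained. When identity also used the outer end, 319 genes and 690 ends did. Annotated strand only, or chromosomes 1 to 19, X and Y only, each left 394 genes and 854 ends. In members, ends of saline only numbered 7 and of morphine only 5 when 1 library of the other group was allowed, and 2 were saline only when identity used the outer end. Without 1 library, 2 to 7 were saline only and 1 to 10 morphine only. Over all ends the main 78 and 80 became 386 and 359 with 1 library allowed, and 171 to 278 and 169 to 325 with 1 library left out.

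With AATAAA alone, the hexamer share fell to 53.0% of members, 61.0% of all stable ends, 39.2% of earlier ends and 63.0% of last ends, so earlier ends stayed below last ends. Over all stable ends it was 76.8% with 100 bases and 77.1% with the outermost end. In the length test, 3 ends were longer and 5 shorter. With 1 library left out these were 10 to 17 and 11 to 18, of which 0 to 2 and 0 to 1 in members. Why more ends then passed was not tested. Without the ends that had 1 length within each group, an alternative chosen after seeing the data, both counts were 0, with 20 ends at an unadjusted p under 0.05. The difference in further ends ran from -0.167 (without morphine 1) to 24.2. Listing depends on depth and assembly, no expression level stands behind an end, and 3 libraries per group limit every comparison.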
